A study of Mus musculus with 2 samples.

Results

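The transcripts of 10 glycolytic enzymes were examined in mouse soft-tissue sarcoma cells after silencing of circCsnk1g3, a circular RNA made from the Csnk1g3 gene. The enzymes are Hk2, Gpi1, Pfkl, Pfkp, Aldoa, Tpi1, Pgk1, Pgam1, Eno1 and Ldha, which were taken by symbol and make up 10 of the 25509 genes of the count table. The tumor cells were C57BL/6 mesenchymal stem cells with p53 knockout and Ccne1 overexpression (p53-/-Ccne1+). They had formed subcutaneous tumors in a first set of mice, were then seeded in the lungs of a second set, and were isolated again from the sarcoma foci there. These cells were then given a hairpin that targets the circRNA (shcircCsnk1g3) or a control hairpin (shCTR), so that both groups carried the knockout, the Ccne1 overexpression and a hairpin. There was 1 library per group. No test between conditions was therefore possible, and every difference given here is a difference between 2 libraries with no replicate check.

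Glycolysis splits glucose into pyruvate in the cytosol. Its first steps spend ATP to phosphorylate the sugar and cut it into a pair of triose phosphates, and its later steps return ATP and NADH. Lactate dehydrogenase then turns pyruvate into lactate and restores the NAD+ that the pathway needs. Proliferating and tumor cells often run the pathway to lactate even where oxygen is present, and many of its genes are known targets of the hypoxia-inducible factors and of Myc.

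The shcircCsnk1g3 library held 38792143 estimated counts over 15256 genes, and the shCTR library 42709996 over 15326 genes. The linear transcript of Csnk1g3, the gene the circRNA comes from, had 2159 and 2411 counts and differed by -0.05 (-0.14 to 0.03) on the log2 scale. The libraries were made from poly(A) RNA, so the circRNA itself was not measured. Of 10 mesenchymal markers 9 passed the count filter, 7 of them lower and 2 higher, and Thy1 was at 0 and 1 counts. Their log2 differences ran from -0.69 (Ly6a) to 0.37 (Col3a1), with Vim at 225330 and 282350 counts and Col1a2 at 78250 and 71642. Leukocyte markers summed to 90 and 163 counts (Cd68 alone 87 and 155, Lyz2 and Adgre1 at 0), endothelial markers to 17 and 24, lung epithelial markers to 15 and 16, with 6 of 7 at 0, and erythrocyte markers to 653 and 807. Of the erythrocyte markers 3 passed the count filter, 1 lower (Hba-a1, 423 and 604 counts) and 2 higher (Hba-a2, 216 and 199, and Alas2, 14 and 4). Alas2 passed only through the shcircCsnk1g3 library, and both beta-globin genes were at 0. Rows that resemble ribosomal RNA held 0.464% of the shcircCsnk1g3 counts and 0.142% of the shCTR counts. The part that the marker differences have in the results was not tested. With the ribosomal RNA-like rows left out of the library sizes, the median of the 10 enzymes was the same to 2 decimals.

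All 10 enzymes were lower in the shcircCsnk1g3 library, by 3.98% (Gpi1) to 17.4% (Eno1). In RNA pooled from many cells, less transcript per cell and fewer cells that express it cannot be told apart. Together they held 333940 counts with shcircCsnk1g3 and 420419 with shCTR. On the scale of TMM-scaled CPM (counts per unit of library size, adjusted so that most genes have equal levels in both libraries), the log2 fold change of the sum was -0.22 (-0.23 to -0.22), where the range in parentheses is a 95% exact interval by the Clopper-Pearson method. Such an interval covers counting error only. As a share of all counts, the enzymes made up 0.861% (0.858% to 0.864%) with shcircCsnk1g3 and 0.984% (0.981% to 0.987%) with shCTR.

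The median log2 fold change over the 10 enzymes was -0.21, the mean was -0.19, and the single values ran from -0.28 to -0.06. Over the 12941 genes tested, which reached 10 counts in either library, the median was 0.00 and 49.6% of genes were lower. The interval lay below 0 for 10 of 10 enzymes. It lay below 0 for 28.2% of all genes and above 0 for 26.9%. Of the 10 enzymes, 0 were at least 20% lower or at least 25% higher, the equal steps up and down on the log scale that served as the size threshold, whereas 13.1% of all genes were that much lower and 12.3% that much higher. Each difference was thus larger than counting error, small in size and in the same direction.

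Abundant genes have narrow intervals, so the enzymes were also set beside the 2611 genes whose mean count was at least that of Hk2, the least abundant of them. In this set the median was -0.03, 57.2% of genes were lower, 44.5% had an interval below 0, 30.7% had an interval above 0 and 5.36% were at least 20% lower. Between 8.20% (Eno1) and 41.7% (Gpi1) of these abundant genes had a log2 fold change at or below that of the enzyme named. Of the 273 genes whose mean reached 500 CPM, 180 were lower and 93 higher, with a median of -0.06. The 6 enzymes in that range (Aldoa, Tpi1, Pgk1, Pgam1, Eno1 and Ldha) had a median of -0.24.

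**Figure D1:**
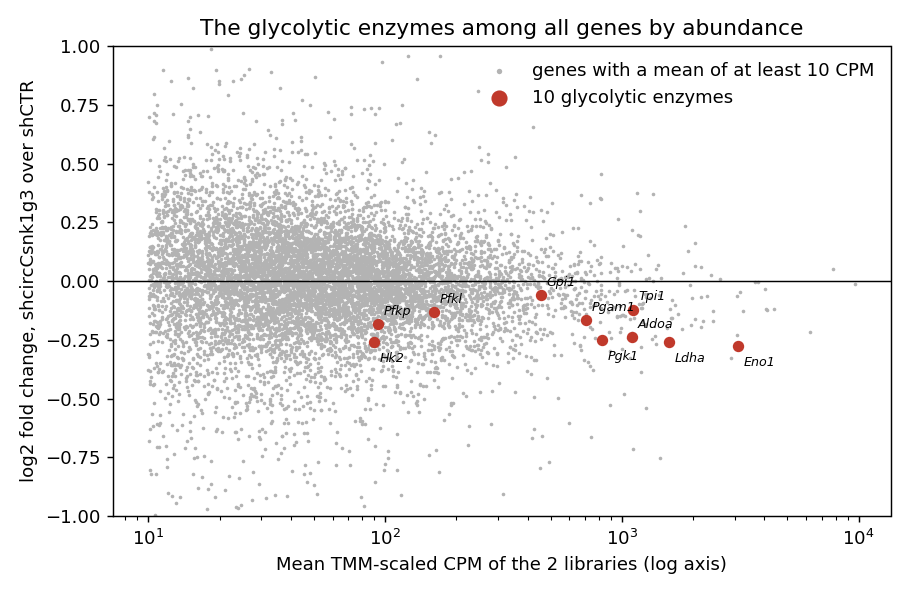
Log2 fold change of shcircCsnk1g3 over shCTR against the mean TMM-scaled CPM of the 2 libraries (log axis) for every gene whose mean reached 10 CPM (grey) and for the 10 glycolytic enzymes (red). All 10 enzymes lie below 0 and above -0.28, inside the cloud of genes of like abundance, and 64 genes beyond the ends of the vertical axis are not shown.

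In the first, ATP-spending part of the pathway, hexokinase traps glucose in the cell as its phosphate. Hk2, the inducible hexokinase found in many tumors (ENSMUSG00000000628, chromosome 6, 82725025 to 82774454, minus strand, GRCm38), had 3219 counts with shcircCsnk1g3 and 4150 with shCTR. These correspond to 82.1 and 98.2 CPM, and the log2 fold change was -0.26 (-0.33 to -0.19). Hk2 was thus 16.4% lower. Gpi1, the isomerase that converts glucose phosphate into fructose phosphate (ENSMUSG00000036427, chromosome 7, 34201330 to 34230336, minus strand), had 17544 and 19686 counts, or 447 and 466 CPM. Its log2 fold change of -0.06 (-0.09 to -0.03) was the smallest of the 10 in size, and with library totals alone as the scale it was -0.03 with an interval that reached 0.

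Phosphofructokinase adds the other phosphate and is the main point of control of the pathway. The liver-type subunit Pfkl (ENSMUSG00000020277, chromosome 10, 77986947 to 78010083, minus strand) had 6010 counts with shcircCsnk1g3 and 7093 with shCTR, or 153 and 168 CPM, which gave -0.13 (-0.18 to -0.08) on the log2 scale. The platelet-type subunit Pfkp (ENSMUSG00000021196, chromosome 13, 6579768 to 6648777, minus strand) had 3423 and 4189 counts, or 87.3 and 99.1 CPM, and a log2 fold change of -0.18 (-0.25 to -0.12). The intervals of both subunits overlapped each other.

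Aldolase cuts the doubly phosphorylated fructose, and triosephosphate isomerase makes both products available to the rest of the pathway. Aldoa (ENSMUSG00000030695, chromosome 7, 126795234 to 126800751, minus strand), the aldolase of muscle and of most proliferating cells, had 39682 counts with shcircCsnk1g3 and 50389 with shCTR. Its CPM values were 1012 and 1193 and its log2 fold change was -0.24 (-0.26 to -0.22). Tpi1 (ENSMUSG00000023456, chromosome 6, 124810586 to 124814296, minus strand) had 41722 and 48880 counts, or 1064 and 1157 CPM, with a log2 fold change of -0.12 (-0.14 to -0.10). The difference for Tpi1 was smaller than that for Aldoa by more than counting error, and it was -0.06 after subtraction of the median of genes of like GC content and length.

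**Figure D2:**
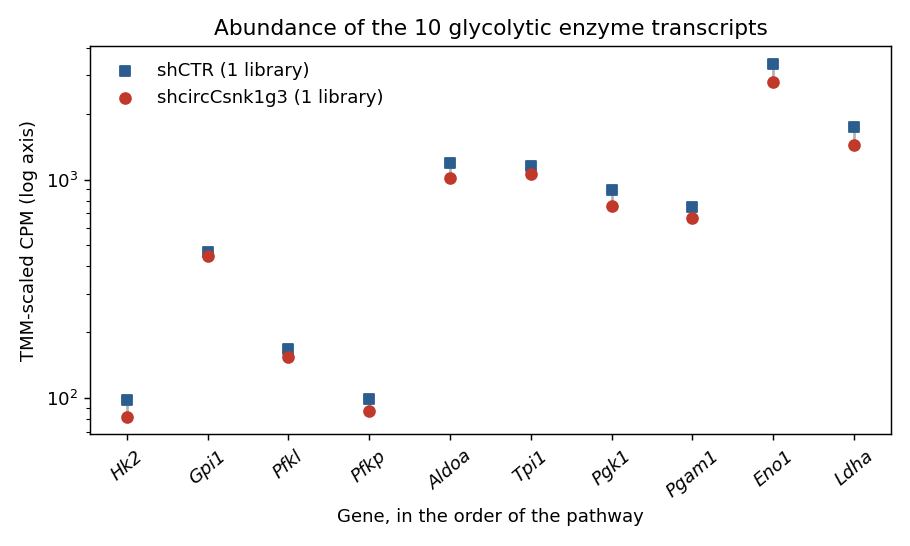
TMM-scaled CPM of the 10 glycolytic enzymes in the shcircCsnk1g3 and shCTR libraries on a log axis, in the order of the pathway, with 1 point per library. The shcircCsnk1g3 point lies at the lower level for each of the 10 enzymes, from Hk2 at 82.1 against 98.2 CPM to Eno1 at 2805 against 3394 CPM.

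In the later, ATP-yielding part, phosphoglycerate kinase makes the first ATP. Pgk1 (ENSMUSG00000062070, chromosome X, 106187100 to 106203699, plus strand) had 29539 counts with shcircCsnk1g3 and 37909 with shCTR. These were 753 and 897 CPM, a log2 fold change of -0.25 (-0.27 to -0.23). A processed pseudogene of it, Pgk1-rs7 (chromosome 12, 10898986 to 10900240), matched the Pgk1 transcript over 1255 bases without a mismatch and had 15981 and 19121 counts of its own. Reads from either copy cannot be told apart over that stretch, so the split between the rows depends on the estimation step of the counting. With this row added, Pgk1 had 45520 and 57030 counts and a log2 fold change of -0.22 (-0.24 to -0.20).

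Phosphoglycerate mutase and enolase rearrange and dehydrate the product for the last ATP-yielding step. Pgam1 (ENSMUSG00000011752, chromosome 19, 41911923 to 41918660, plus strand) had 26157 counts with shcircCsnk1g3 and 31600 with shCTR. At 667 and 748 CPM, its log2 fold change was -0.17 (-0.19 to -0.14). Eno1, the enolase of most tissues (ENSMUSG00000063524, chromosome 4, 150236721 to 150248879, plus strand), had 110001 and 143409 counts, or 2805 and 3394 CPM. Its log2 fold change of -0.28 (-0.29 to -0.26) was the lowest of the 10 enzymes, although the intervals of Hk2, Pgk1 and Ldha overlapped that of Eno1.

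Ldha (ENSMUSG00000063229, chromosome 7, 46841475 to 46855627, plus strand) encodes the lactate dehydrogenase subunit that predominates in muscle and in many tumors. It had 56643 counts with shcircCsnk1g3 and 73114 with shCTR, or 1444 and 1731 CPM. The log2 fold change was -0.26 (-0.28 to -0.24). Annotated transcripts of 37 other genes matched one of the 10 enzymes with at least 90% identity over at least 200 bases, and 5 of these genes had a row in the count table. Apart from Pgk1-rs7 and the enolase copy Eno1b, none of these rows had more than 55 counts in both libraries together. Pseudogenes without a row, such as Pgam1-ps2 with 100% identity to Pgam1 over 765 bases, could hold reads that are not in the counts given here. Hk2, Pfkl and Pfkp matched none of the 37 genes.

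Levels of different genes were compared per kilobase of the reference transcript. In the shCTR library Eno1 was the highest at 1675 CPM per kb, followed by Ldha at 980, Aldoa at 789, Tpi1 at 720, Pgk1 at 492, Pgam1 at 421 and Gpi1 at 162. The control-point enzymes were the lowest, with Pfkl at 45.0, Pfkp at 23.9 and Hk2 at 17.8 CPM per kb. The order was the same in the shcircCsnk1g3 library, from Eno1 at 1384 to Hk2 at 14.9 CPM per kb, but there Aldoa (670) and Tpi1 (662) were nearly equal. The order depends on the length used and on the near-identical copies. Per kilobase of all annotated exons, the shCTR levels of Tpi1, Aldoa, Pgk1 and Pgam1 were 420, 410, 400 and 377 CPM, and Pfkp (7.40) was below Hk2 (16.5). With the Pgk1-rs7 row added, Pgk1 was at 740 CPM per kb of its transcript in the shCTR library, above Tpi1, and at 636 in the shcircCsnk1g3 library, below it.

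The promoters of the enzymes were searched for the short core ACGTG, or GCGTG, of the elements that hypoxia-inducible factors bind, because these genes are known as targets of those factors. The search covered the 250 bases before the RefSeq start site (GRCm38.p6) on both strands. That site lay up to 244 bases (Eno1) from the 5′ end of the reference transcript, and 138 bases from it for Tpi1. A core was found in 8 of the 10 windows, ACGTG in 4 and GCGTG in 5, and Gpi1 and Tpi1 had none. Among the 12280 windows of the 9587 tested genes that had a window, 55.2% held a core, 21.2% ACGTG and 44.3% GCGTG. A gene could have several windows there, whereas 1 window was used for each enzyme. Of all 32851 windows in the RefSeq table, 38.6% held a core. Pfkp and Pgam1 had 3 cores each, and 11.6% of the windows of genes tested had 3 or more. The longer palindrome CACGTG, which contains ACGTG and which Myc binds, was in 0 of the 10 windows and in 8.18% of those of genes tested. The stretches around ACGTG cores of the 4 enzymes that had it are printed 5′ to 3′ on the strand of the gene, with cores in capitals, so that CACGT and CACGC are cores on the other strand. They come from chrX:106186935-106186988 (Pgk1, plus strand), chr6:82774661-82774695 (Hk2, minus strand), chr7:126799361-126799395 (Aldoa, minus strand) and chr19:41911681-41911776 (Pgam1, plus strand).
Pgk1: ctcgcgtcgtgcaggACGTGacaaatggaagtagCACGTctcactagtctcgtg
Hk2: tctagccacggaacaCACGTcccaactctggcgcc
Aldoa: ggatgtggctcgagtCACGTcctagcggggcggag
Pgam1: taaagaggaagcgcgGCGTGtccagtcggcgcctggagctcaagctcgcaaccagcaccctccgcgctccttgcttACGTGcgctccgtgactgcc

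In Pgk1 both cores lie within the printed stretch, with their first bases 150 and 131 bases before the start site. The Hk2 core shown begins 226 bases before the start site, and its other ACGTG core, outside the printed stretch, 52 bases before it. The Aldoa core begins 126 bases before the start site. The Pgam1 stretch holds 2 of its 3 cores, which begin 175 and 114 bases before the start site. A match of these letters is not evidence that a factor binds there, and no binding was measured in these cells.

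The rest of the pathway was examined through a list of 22 other enzymes and isozymes, of which 15 passed the count filter, 14 were lower and 1 was higher in the shcircCsnk1g3 library. The interval lay below 0 for 11 of the 15, beside 28.2% of all genes, and above 0 for 0, and 9 were at least 20% lower, beside 13.1% of all genes. Hkdc1 (3 and 16 counts) and Gapdhs (3 and 12 counts) passed the filter only through the shCTR library, so that their lower values follow from the filter. Of the 13 genes with at least 10 counts in both libraries, 12 were lower, 9 had an interval below 0 and 7 were at least 20% lower. Of the 10 genes with at least 200 counts over both libraries, 9 were lower, 8 had an interval below 0 and 5 (Hk1, Pfkm, Eno1b, Eno3 and Ldhb) were at least 20% lower, beside 9.06% of all genes at that count. The median was -0.40 over the 15 genes and -0.28 over these 10. The 7 genes that did not pass the filter had under 10 counts in each library, and 6 of them were at or under 3 counts in both libraries.

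Gapdh and Pkm catalyse the steps of the main line that the 10 enzymes leave out. Gapdh, which makes the NADH of the pathway, had 56772 counts with shcircCsnk1g3 and 70214 with shCTR, or 1448 and 1662 CPM, a log2 fold change of -0.20 (-0.22 to -0.18). Pkm, the pyruvate kinase of muscle and tumors that makes the last ATP, had 164433 and 192198 counts, or 4193 and 4549 CPM, a log2 fold change of -0.12 (-0.13 to -0.11). Both were lower by a size within the range of the 10 enzymes.

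The isozymes were more unequal. Hk1, the constitutive hexokinase, had 4936 counts with shcircCsnk1g3 and 6795 with shCTR, with a log2 fold change of -0.35 (-0.41 to -0.30). The muscle-type phosphofructokinase Pfkm had 2283 and 3377 counts and a log2 fold change of -0.46 (-0.53 to -0.38). Eno3, the muscle enolase, had 2750 and 4179 counts, which gave -0.50 (-0.57 to -0.43) on the log2 scale. Each of these 3 isozymes was more than 20% lower, although Hk1 was at that threshold (-0.32) with total counts. The intervals of Pfkm lay below those of Pfkl and Pfkp and that of Eno3 below that of Eno1, whereas the intervals of Hk1 and Hk2 overlapped.

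Ldhb, the heart-type lactate dehydrogenase subunit, had 956 counts with shcircCsnk1g3 and 1610 with shCTR and a log2 fold change of -0.64 (-0.76 to -0.53). Eno1b, on chromosome 18, had 678 and 1095 counts and a log2 fold change of -0.58 (-0.72 to -0.44), but its transcript is 99.5% identical to that of Eno1 and its count is uncertain. Eno2, the neuronal enolase, was the 1 gene of the list with a higher value, 542 against 539 counts, and its interval of -0.06 to 0.29 around 0.12 included 0. The intervals of Bpgm, the mutase that makes the haemoglobin ligand of red cells (-0.03, -0.12 to 0.06), of the aldolase Aldoc (29 and 42 counts) and of Ldhd (16 and 19 counts), a dehydrogenase of D-lactate, also included 0. Adpgk, an ADP-dependent glucokinase, was at -0.09 (-0.17 to -0.02), or -0.06 with an interval that included 0 when total counts set the scale, and the muscle mutase Pgam2, with 17 and 37 counts, was at -0.94 (-1.94 to -0.15).

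**Figure D3:**
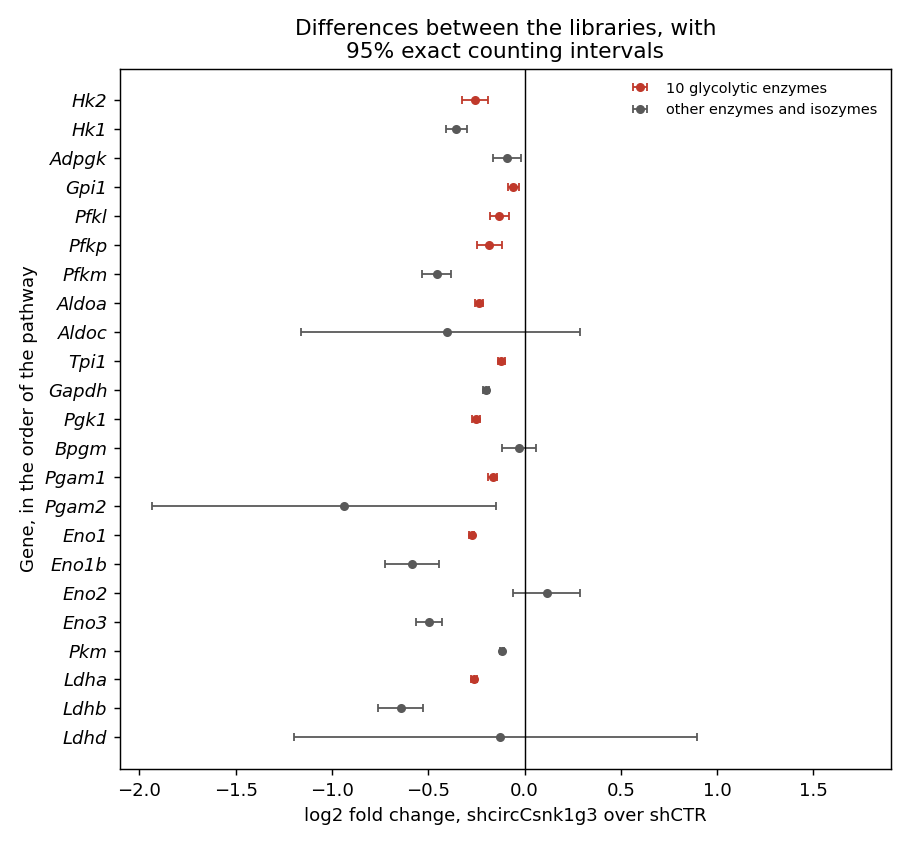
Log2 fold changes of shcircCsnk1g3 over shCTR with 95% exact counting intervals (bars) for the 10 glycolytic enzymes (red) and the other enzymes and isozymes that passed the count filter (grey), in the order of the pathway. The red points sit between -0.28 and -0.06, while Hk1, Pfkm, Aldoc, Pgam2, Eno1b, Eno3 and Ldhb sit further below 0. Hkdc1 and Gapdhs, at 3 counts in the shcircCsnk1g3 library, are left out.

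The share of an isozyme in the counts of its step does not depend on the scale between libraries. Pfkl made up 51.3% (50.4% to 52.2%, exact interval) of phosphofructokinase counts with shcircCsnk1g3 and 48.4% (47.6% to 49.2%) with shCTR. Pfkm made up 19.5% (18.8% to 20.2%) and 23.0% (22.4% to 23.7%). The intervals of Pfkl did not overlap between libraries, nor did those of Pfkm, whereas Pfkp was at 29.2% and 28.6% with overlapping intervals. The Hk2 share of hexokinase counts, 39.5% (38.4% to 40.5%) with shcircCsnk1g3 and 37.9% (37.0% to 38.8%) with shCTR, overlapped as well.

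Ldhb made up 1.66% (1.56% to 1.77%) of lactate dehydrogenase counts with shcircCsnk1g3 and 2.15% (2.05% to 2.26%) with shCTR. Eno3 made up 2.43% and 2.82% of enolase counts without Eno1b, and Eno2 0.478% and 0.364%. The intervals of each of these 3 minor isozymes lay apart between the libraries. Those of the minor isozymes Aldoc (0.0730% and 0.0833%) and Pgam2 (0.0650% and 0.117%) overlapped. Intervals of the fold change lay below 0 for 28.2% of all genes tested and above 0 for 26.9%. No background of shares was computed from other genes. Ldha, Eno1, Aldoa and Pgam1 each supplied over 96% of the counts of their step in both libraries, so the summed steps followed them, with log2 fold changes of -0.27 for lactate dehydrogenase, -0.28 for enolase, -0.24 for aldolase and -0.17 for phosphoglycerate mutase. Hexokinase as a step was at -0.32 and phosphofructokinase at -0.22.

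**Figure D4:**
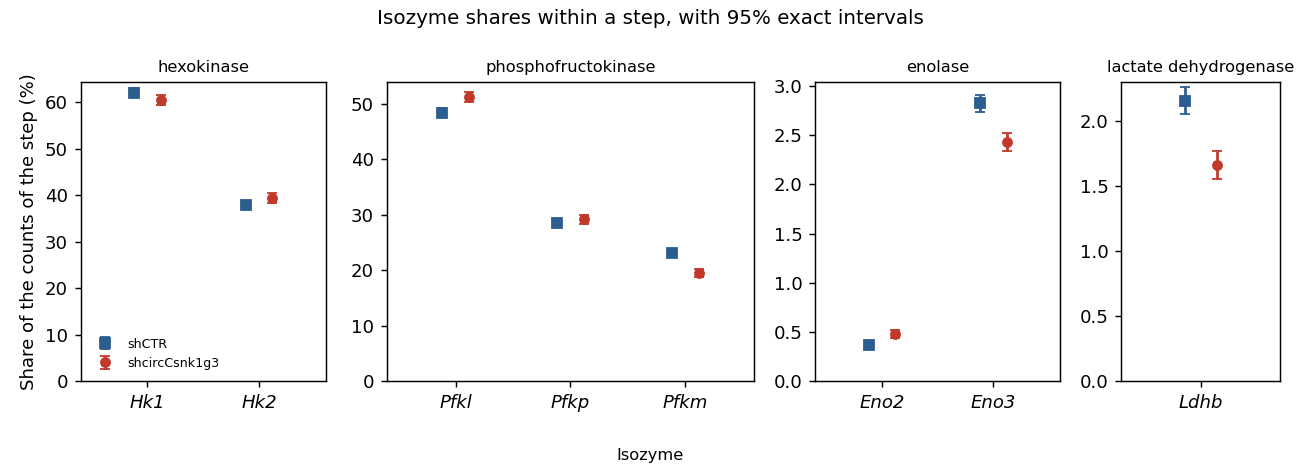
Share of each isozyme in the counts of its enzymatic step, in percent, in the shcircCsnk1g3 and shCTR libraries, with 95% exact intervals as bars. Pfkl is higher (51.3% against 48.4%) and Pfkm lower (19.5% against 23.0%) with shcircCsnk1g3, while the intervals of Hk2 and Pfkp overlap between the libraries.

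Genes that feed the pathway or draw from it included both lower and higher members. Of 10 tested genes of glucose and lactate transport, 4 were lower and 6 higher, the interval lay below 0 for 4 and above 0 for 2, and the median was 0.08. Over all genes tested, 28.2% of intervals lay below 0 and 26.9% above, and no difference from that background was shown for so few genes. The sign of this median depends on the count filter, since it was -0.03 over the genes with at least 200 counts in both libraries together. Slc2a1, the glucose transporter GLUT1, had 10548 counts with shcircCsnk1g3 and 12455 with shCTR, a log2 fold change of -0.13 (-0.17 to -0.09). The lactate exporter Slc16a3 was higher at 325 and 217 counts, with 0.69 (0.44 to 0.94), and the lactate transporter Slc16a1 at 5911 and 5572 counts, with 0.19 (0.14 to 0.25), or 0.12 after subtraction of the median of genes of like GC content and length. Emb, a partner protein of such transporters, had 467 and 764 counts and a log2 fold change of -0.60 (-0.77 to -0.43). Of 7 tested regulators of flux, 3 were lower and 4 higher with a median of 0.07, the interval lay below 0 for 0 and above 0 for 2, and the kinase/phosphatase genes Pfkfb3, which sets an activator of phosphofructokinase, and Pfkfb4 were at -0.17 (-0.34 to 0.01) and 0.24 (0.05 to 0.44). After the GC and length correction the interval of Pfkfb4 included 0 and that of Pfkfb3 lay just below it.

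Downstream and side pathways had medians between that of the 10 enzymes and 0, and their interval counts stand beside 28.2% of all genes below 0 and 26.9% above. Of 20 genes listed for the tricarboxylic acid cycle, cytosolic forms such as Idh1 included, 17 were lower. The interval lay below 0 for 13 and above 0 for 1, and the median was -0.12. Single genes ran from Idh1 at -0.33 (-0.41 to -0.25), followed by the cycle enzyme Idh3a at -0.28 (-0.35 to -0.21), to Idh3g at 0.06 (0.00 to 0.12). Of the 14 that were at least as abundant as Hk2, 12 were lower and 8 had an interval below 0, beside 57.2% and 44.5% of all genes that abundant, with a median of -0.07. Of 15 genes of pyruvate entry into mitochondria, 11 were lower, 6 had an interval below 0 and 3 above, with a median of -0.09. The tally includes Pdk4, named after its values were seen, which passed the filter only through the shCTR library (1 and 14 counts), and without it 10 of 14 were lower and 5 had an interval below 0. Among the others, the pyruvate carboxylase Pcx was at -0.56 (-0.71 to -0.41), the dehydrogenase subunit Dld at 0.21 (0.15 to 0.28), and Pdk1, a kinase that shuts off pyruvate dehydrogenase, at -0.09 (-0.16 to -0.01). With total counts as the scale Pdk1 was at -0.06 with an interval that included 0, and the list median was -0.06. Of 8 pentose phosphate genes, 5 were lower with an interval below 0, 2 had an interval above 0 and the median was -0.10 (-0.07 after the GC and length correction), and Pgd was higher at 0.19 (0.16 to 0.23) while H6pd was lower at -0.34 (-0.39 to -0.28). Of 12 genes of the glycogen, hexosamine and glycerol branches, 9 were lower, 5 had an interval below 0 and 2 above, with a median of -0.11. Of the 11 with at least 10 counts in both libraries, 8 were lower and the same numbers of intervals lay below and above 0. The extremes there were Gpd1l at -0.46 (-0.61 to -0.31) and Pgm1, a sugar phosphate mutase that corresponds to human PGM2, at 0.25 (0.14 to 0.36) with 1478 and 1338 counts. The row Pgm2, which corresponds to the main phosphoglucomutase PGM1 of humans and is named here after its values were seen, was lower at 6772 and 8311 counts, with -0.19 (-0.23 to -0.14).

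Of the transcription factors named above, Hif1a and Myc were higher, with intervals above 0. Hif1a had 15224 counts with shcircCsnk1g3 and 14367 with shCTR, a log2 fold change of 0.19 (0.16 to 0.22). Myc had 10466 and 10149 counts and was at 0.15 (0.11 to 0.19). Epas1, the HIF family member named here after its values were seen, had 289 and 348 counts and was at -0.16 (-0.39 to 0.07), an interval that included 0. Of the 13 tested genes of their list, 5 were lower (4 intervals below 0) and 8 higher (5 intervals above 0) with a median of 0.03 (0.06 with total counts), and Egln3, an oxygen-sensing hydroxylase that is itself induced by hypoxia, was the lowest at -0.52 (-0.61 to -0.42). Of 21 hypoxia-inducible genes outside glycolysis, 14 were lower (13 intervals below 0) and 7 higher (6 intervals above 0) with a median of -0.18, and their values spread from Loxl2 at -1.19 (-1.26 to -1.12) to Ero1l at 0.53 (0.49 to 0.56) among genes whose mean reached 10 CPM. The 10 glycolytic enzymes spanned a narrower range, a difference in spread that was not tested. The interval counts of both lists stand beside 28.2% of all genes below 0 and 26.9% above.

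**Figure D5:**
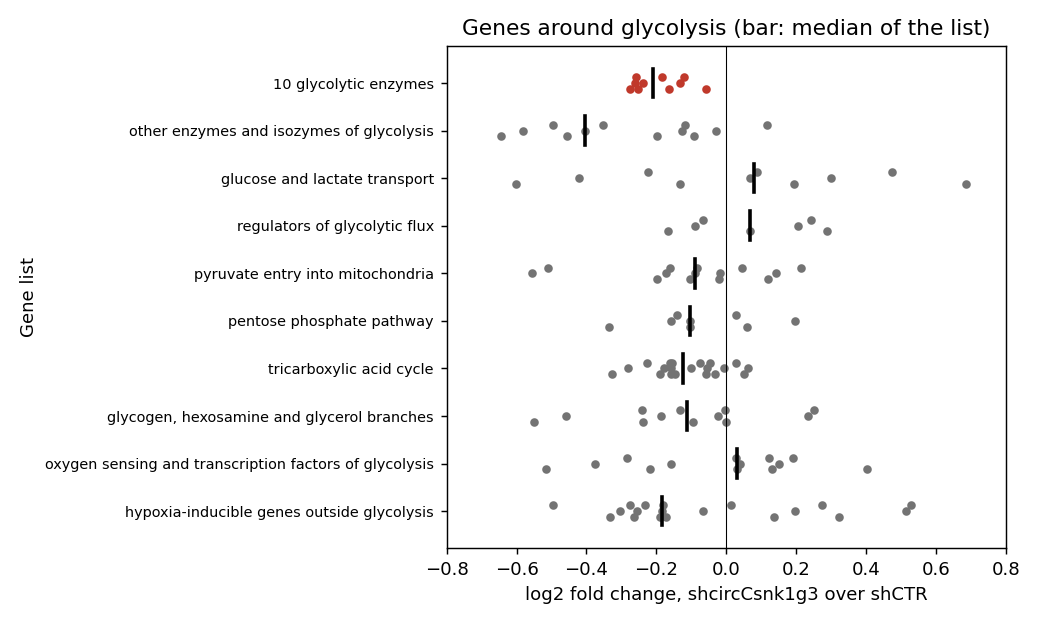
Log2 fold changes of shcircCsnk1g3 over shCTR for the genes of each list (points) with the list median (line). All points of the 10 glycolytic enzymes lie between -0.28 and -0.06, those of the other enzymes lie below 0 except Eno2 (0.12, interval including 0), the remaining lists have genes on both sides of 0, and 6 genes beyond the ends of the axis are not shown.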

How the data were processed

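Soft-tissue sarcoma cells with shcircCsnk1g3 or shCTR gave 2 stranded poly(A) libraries, 1 per group. The authors used bcl2fastq 2.20, STAR 2.6.1 (GRCm38, GENCODE, release not given in the sources used here) and RSEM 1.2.28, and deposited estimated counts (expected counts of RSEM) per gene, rounded to whole numbers, without normalization. They also deposited a TMM-scaled signal per gene for 11624 genes, made with edgeR 3.30, which served as an alternative only. RSEM divides reads shared between copies, so counts of enzymes with near-identical pseudogenes, Pgk1, Eno1 and Pgam1 foremost, are uncertain, also where the pseudogene has no row in the table. Here, TMM factors came from edgeR 4.0.16 (R 4.3.3) over the 12941 genes that reached 10 counts in either library, after 92 empty spike-in rows were left out. Log2 fold changes used a prior count of 2. With 1 library per group no p-value was computed. Clopper-Pearson intervals (95%, scipy 1.17.1) cover counting error only, not culture-to-culture variation or PCR duplicates, and compare libraries, not conditions. Their half-width was 0.067 for Hk2 and 0.011 for Eno1 (log2). A gene at or under 3 counts (0.0765 CPM in shcircCsnk1g3, 0.0710 in shCTR) was taken as not detectable.

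The enzymes, the gene lists and the rules were chosen with earlier results of these data known. Named genes are the 10 enzymes, every other enzyme with at least 10 counts in a library, Slc2a1, Slc16a1, Slc16a3, Pfkfb3, Pdk1, Hif1a and Myc, and the largest increase and decrease of each further list among genes whose mean reached 10 CPM. Coordinates and lengths are from GENCODE M21 (25251 of 25509 identifiers found), matches between transcripts from blastn 2.17.0, and promoters from RefSeq (10 of 10 enzymes found, start site nearest to the 5′ end of the reference transcript). Alternatives were DESeq2 1.42.0 size factors, total counts, the deposited signal, prior counts of 0.5 and 10, other count filters, removal of ribosomal RNA-like rows, a GC and length correction, addition of near-identical rows, and thresholds of 1.5-fold and 2-fold. The steps were tested on simulated data.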

Additional observations from a re-analysis of the deposited data

How the results depend on the processing

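Of 100 values of the 10 enzymes under the alternatives, 54 differed from the reported value at all (a filter on low counts cannot move an abundant gene), and all of these were below 0. In all, 2 of 565 alternative values had the other sign: Bpgm, whose own interval includes 0, at 0.0026 with total counts (-0.03 as reported), and the median of glucose and lactate transport, at -0.03 with at least 200 summed counts (0.08 as reported). The median of the 10 enzymes was -0.18 with total counts, a scale that puts the median of all genes at 0.03, and there 9 enzymes had an interval below 0, since that of Gpi1 (-0.03) reached 0. Without Hk2, Aldoa, Pgk1, Eno1 or Ldha in turn the median was -0.18, and without Gpi1, Pfkl, Pfkp, Tpi1 or Pgam1 it was -0.24. The median of the other enzymes was -0.27 in the deposited signal table and -0.28 with at least 200 summed counts. Genes at least 20% lower, 1692 of all tested, became 3029 with no filter and 966 with at least 200 summed counts. A threshold of 1.5-fold was passed downwards by 817 genes, one of 2-fold by 330, and either by 0 of the 10 enzymes. Of the 247 values of single genes that an alternative changed, 231 stayed within the gene's own interval. With total counts, Gpi1, Aldoa, Tpi1, Pgk1, Pgam1, Eno1 and Ldha fell outside theirs, as did Gapdh and Pkm. Eno1 was at -0.24 there, beside its reported interval of -0.29 to -0.26. The counting intervals thus do not cover the choice of scale. No paired analysis was possible because each group is a single library, and for the same reason no replicate could be left out. The counting intervals of the enzymes were narrow, but they do not cover the choice of scale, the near-identical copies or the spread between cultures. That spread is unknown without replicates.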
